A study of Mus musculus with 8 samples.

Results

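The genes of the MYC, MAX and MXD network, Myc, Max, Mxd1, Mxd3, Mxd4, Mxi1, Mnt and Mlx, were examined in regulatory T (Treg) cells with and without the transcription factor Foxp1. The 8 genes were picked by symbol and are 8 of the 27594 genes in the count table, and all 8 passed the filter on low counts. RNA was sequenced from 2 Treg populations of C57BL/6 mice aged 6 to 8 weeks, sorted from spleen and peripheral lymph nodes. Resting Treg (rTreg) cells were sorted as CD4+YFP+CD44lowCD62Lhigh and activated Treg (aTreg) cells as CD4+YFP+CD44highCD62Llow. Control mice, called wild type (WT) here, carried Foxp3-YFP-Cre alone, and Foxp1-deficient (cKO) mice were Foxp1fl/fl Foxp3-YFP-Cre. Every group therefore carried the YFP-Cre fusion at Foxp3, which is expressed in Treg cells, and the deletion of Foxp1 was limited to cells that had switched Foxp3 on. Each of the 4 groups had 2 libraries, with 6373170 to 15268623 counted reads per library.

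MYC is a basic helix-loop-helix leucine zipper protein that drives growth and division in activated lymphocytes. It binds DNA only as a partner of MAX, at the E-box letters CACGTG, and recruits coactivators there. The MXD proteins (Mxd1, Mxd3, Mxd4 and Mxi1) and MNT also pair with MAX at E-boxes, but recruit the SIN3-HDAC corepressor, so that the balance between MYC and these repressors sets the output of shared targets. MLX is a second shared partner, which pairs with some of the MXD proteins, with MNT and with the nutrient sensor MondoA (Mlxip).

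The E-box is also found in the promoters of the network's own genes. Promoters were taken from RefSeq (GRCm38.p6) as 250 bases before to 50 bases after each start, and 7 of the 8 genes matched an entry, Myc being the other one. The letters CACGTG, which read the same on both strands, stood in the promoters of 4 of these 7 genes, beside 7.15% of all 32851 promoters and 8.09% of the 27025 genes with a promoter. The windows below are shown because they carry the letters that the network's own dimers read. Each is written 5′ to 3′ on the gene's strand with the E-box in capitals. Position is that of the first E-box base from the start, with negative values upstream.
Max, chr12:76962234-76962263 (minus strand), position -3: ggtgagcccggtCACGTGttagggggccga
Mxd4, chr5:34187912-34187941 (minus strand), position -219: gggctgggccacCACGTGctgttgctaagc
Mnt, chr11:74830789-74830818 (plus strand), position -123: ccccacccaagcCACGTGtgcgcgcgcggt
Mlx, chr11:101087238-101087267 (plus strand), position -40: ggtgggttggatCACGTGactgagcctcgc
The promoters of Mxd1, Mxd3 and Mxi1 held no CACGTG in this window. The E2F letters TTTCCCGC or TTTGGCGC, searched on both strands, were in none of the 7 genes' promoters and in 1.56% of all promoters. The forkhead letters TGTTTAC, also searched on both strands, matched 1 of the 3 listed Mxi1 promoters, at position -231, and 3.65% of all promoters. The 250 bases upstream of Mxd3, the one member that differed between the genotypes in both subsets, are given for reference and hold none of the exact letters searched.
Mxd3, chr13:55329732-55329981 (minus strand): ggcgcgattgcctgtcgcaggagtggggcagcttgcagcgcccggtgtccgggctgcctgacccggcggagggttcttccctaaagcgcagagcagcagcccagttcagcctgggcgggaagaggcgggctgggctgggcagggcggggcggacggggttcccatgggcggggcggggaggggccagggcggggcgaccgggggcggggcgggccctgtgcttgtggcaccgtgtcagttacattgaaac
A match of letters is a description of the sequence and was not tested as a binding site. Only these exact letters were searched, so a promoter without them may hold a variant of a motif. Of a list of 20 proliferation genes, 17 had a promoter entry, and 0 of these held the E2F letters.

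The labels were checked first. Foxp1 in Foxp1-deficient aTreg cells was at 126.0 and 101.6 CPM (counts per 1000000 reads of the library, after TMM normalization) against 234.5 and 230.3 in WT aTreg cells, a log2 difference of -1.03 ± 0.096 (SE; edgeR adjusted p = 0.00194). In Foxp1-deficient rTreg cells it was at 342.0 and 337.8 CPM against 353.5 and 383.8 in WT rTreg cells (log2 difference -0.12 ± 0.094, adjusted p = 0.460). The count covers the whole gene and the floxed exons were not counted apart, so it does not check the genotype label of the rTreg libraries. Of the 7 CD4 T and Treg markers all were above 0 in every library, with a summed level of 3032 to 4748 CPM of the library total. On that scale the 8 myeloid markers summed to 0.765 to 2.13 in WT rTreg, 5.77 to 16.6 in Foxp1-deficient rTreg, 4.45 to 5.64 in WT aTreg and 4.52 to 29.5 in Foxp1-deficient aTreg libraries, and Mpo was the only one of them at 0 in both WT rTreg libraries. The 6 B and plasma cell markers summed to 9.03 to 9.83, 13.4 to 16.6, 21.9 to 22.7 and 23.8 to 29.5 in the same order, with Cd79b at 4.36 to 5.20 in rTreg and 15.1 to 17.0 in aTreg libraries, Jchain at 0.306 to 10.7, and Ms4a1 and Pax5 at most 0.262 and 1.06. The 3 NK markers summed to 0.186 to 0.765, 1.73 to 2.50, 3.4975 to 8.65 and 7.56 to 7.59. The part of these cells in the results was not tested. Libraries numbered 1 held 0 to 3 Xist counts and those numbered 2 held 15098 to 21822, so sex and replicate number cannot be told apart. Whether the 2 libraries of a group came from separate mice or from pools is not given in the sources used here. The main test took out the effect of replicate number, and any shared effect of sex with it. Its p-values measure the spread that was left between these libraries.

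Counted over the network, 1 of the 8 genes passed as higher and 0 as lower between the genotypes in rTreg cells, while 6.57% of the 14540 genes tested passed as higher and 5.45% as lower. In Foxp1-deficient aTreg cells 1 was higher and 0 lower, beside 4.11% and 2.77% of all genes. In each of these tests 3 members had an unadjusted p under 0.05. From rTreg to aTreg cells in WT mice 2 were higher (Mxd3 and Mxd4) and 3 lower (Myc, Mxd1 and Mnt), beside 18.2% and 13.6% of all genes. In Foxp1-deficient mice 2 were higher (Mxd3 and Mxd4) and 4 lower (Myc, Mxd1, Max and Mlx), beside 21.9% and 18.2% of all genes. No member passed in the edgeR test of the difference between the genotype effects, where 0.186% of all genes passed as higher and 0.144% as lower, 2 members (Myc and Max) had an unadjusted p under 0.05, and DESeq2, limma-voom and the fit without the block called 0. The median log2 difference of the 8 genes was 0.05, -0.04, -0.19 and -0.15 in these 4 comparisons, beside 0.00, 0.00, 0.00 and -0.02 for all genes tested. The 4 comparisons share libraries, each group entering 2 of them, so that agreement between them is not independent. Without the replicate block 0, 0, 4 and 3 members passed.

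**Figure D1:**
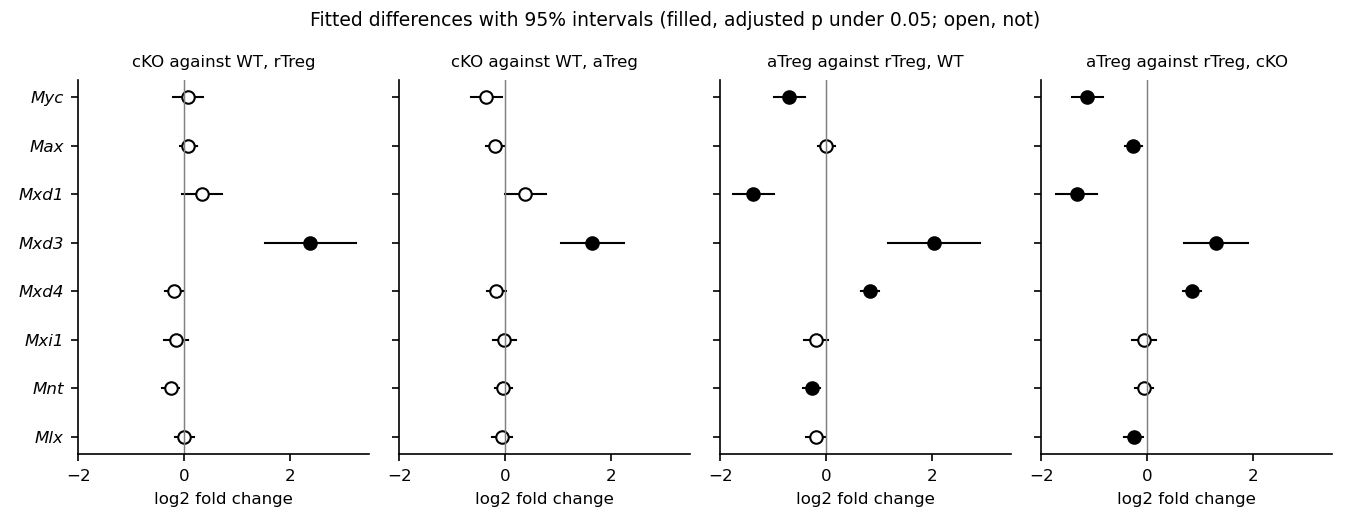
Fitted log2 fold changes (x axes) of the 8 network genes in the 4 comparisons, with 95% intervals as lines. Filled points passed an adjusted p of 0.05 in edgeR, and Mxd3 is the one filled point in both genotype panels, at 2.39 and 1.65.

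Myc was the most abundant network transcript per length in rTreg cells and was lower in aTreg cells of both genotypes. In WT mice it was at 201.0 and 207.7 CPM in rTreg libraries and at 137.6 and 117.3 in aTreg cells. In Foxp1-deficient mice it was at 225.2 and 210.1 CPM in rTreg libraries and at 119.2 and 81.94 in aTreg cells. All 4 rTreg libraries lay above all 4 aTreg libraries. The fall from rTreg to aTreg cells passed the test in WT (log2 difference -0.69 ± 0.12, 1.61-fold, adjusted p = 0.00425) and in Foxp1-deficient mice (-1.13 ± 0.12, 2.19-fold, adjusted p = 0.000308). The WT fall did not reach the 2-fold size that the study set for subset differences. The WT call was lost when limma was run on the log2 of FPKM (the authors' level per transcript length and library size) plus 1 without a filter (adjusted p = 0.0729). In these bulk samples, fewer cells of a type and less RNA per cell cannot be told apart.

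Between the genotypes Myc did not pass the test. In rTreg cells the difference was 0.09 on the log2 scale with a 95% interval of -0.20 to 0.37 (adjusted p = 0.694). In aTreg cells it was -0.35, with an interval of -0.64 to -0.06 (adjusted p = 0.139), and the groups overlapped, since the Foxp1-deficient library of replicate 1 lay above the WT library of replicate 2. Compared within replicate numbers, Myc was lower in Foxp1-deficient aTreg cells by 0.21 in pair 1 and by 0.52 in pair 2. This difference passed when Foxp1-deficient aTreg replicate 1 was left out (-0.58, adjusted p = 0.0407) and when genes with low counts were kept (-0.34, adjusted p = 0.0193), and in no other of the alternatives run. Between aTreg and rTreg cells, the effect of genotype on Myc differed by -0.44 ± 0.17 (unadjusted p = 0.0368, adjusted p = 0.345), which did not pass either.

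**Figure D2:**
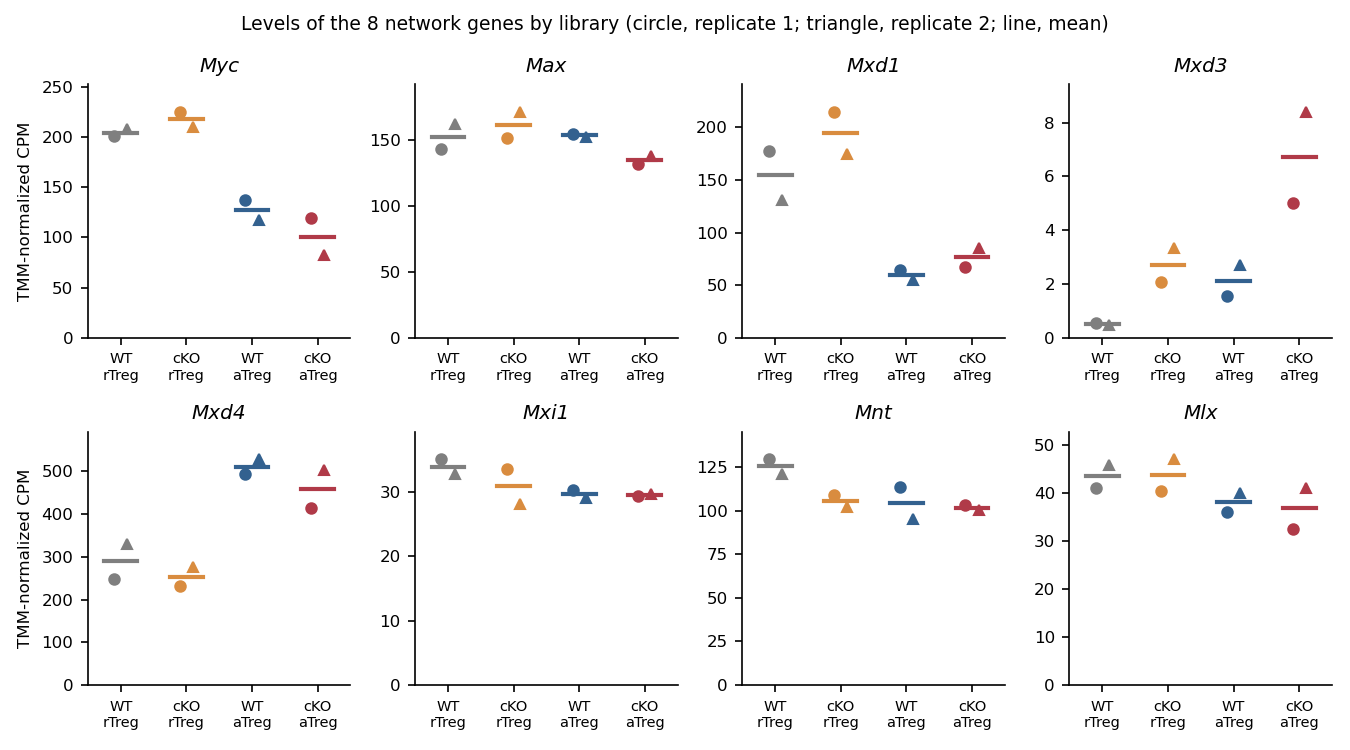
TMM-normalized CPM (y axes, from 0, one scale per gene) of the 8 network genes in the 4 groups, with a circle for replicate 1, a triangle for replicate 2 and a line at the mean. Myc and Mxd1 lie higher in all rTreg than in all aTreg libraries, Mxd4 lies lower, and Mxd3 runs from 0.471 to 8.41.

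Max, the partner that MYC and the repressors share, varied little. WT libraries held 143.1 and 162.5 CPM (rTreg) and 154.7 and 152.6 CPM (aTreg), with a log2 difference of 0.01 and a 95% interval of -0.15 to 0.17. Foxp1-deficient libraries held 151.6 and 171.7 CPM (rTreg) and 132.0 and 138.2 CPM (aTreg). The aTreg libraries of these mice were the lowest of all 8. Here Max was lower by 0.26 ± 0.070 in aTreg cells (1.20-fold, adjusted p = 0.0212), a call that was lost without the replicate block (adjusted p = 0.09999), on FPKM plus 1 (0.0549, and 0.0959 without filter) or plus 0.1 (0.0556), and without any one of the 4 Foxp1-deficient libraries (0.0586 and 0.172 without rTreg replicates 1 and 2, 0.0679 and 0.130 without aTreg replicates 1 and 2). In aTreg cells the genotypes did not overlap, yet the difference of -0.19 (95% interval -0.35 to -0.02) did not pass over all genes (adjusted p = 0.161). The interaction for Max was -0.27 ± 0.099 (unadjusted p = 0.0280, adjusted p = 0.309).

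Among the repressors, Mxd1 was lower and Mxd4 higher in aTreg than in rTreg cells. Mxd1, first known as MAD1 and linked to the exit from cell division during differentiation, was at 177.9 and 130.6 CPM in WT rTreg libraries and at 64.08 and 54.49 CPM in WT aTreg libraries. Foxp1-deficient cells held 215.0 and 174.8 CPM in rTreg and 67.23 and 85.82 in aTreg libraries. Every rTreg library was above every aTreg library, and Mxd1 fell 2.59-fold in WT (-1.37 ± 0.17, adjusted p = 0.000702) and 2.51-fold in Foxp1-deficient mice (-1.33 ± 0.17, adjusted p = 0.000561). These were the largest falls of the 8 genes in fold, and both calls held under each of the alternatives run. Between the genotypes, Mxd1 differed by 0.34 in rTreg cells (95% interval -0.03 to 0.71, adjusted p = 0.215) and by 0.39 in aTreg cells (-0.004 to 0.78, adjusted p = 0.219). The aTreg value was 0.07 in pair 1 and 0.66 in pair 2, and it passed without Foxp1-deficient aTreg replicate 1 (0.70, adjusted p = 0.0190) and without the filter on low counts (0.0205). The rTreg value passed without Foxp1-deficient aTreg replicate 1 or 2 (adjusted p = 0.0305 and 0.0319) and in the fit of the 4 rTreg libraries alone (0.0161).

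Mxd1 is also transcribed in myeloid cells, so the marker sums given above bear on it. In Foxp1-deficient aTreg cells the myeloid sum was 29.5 in replicate 1 and 4.52 in replicate 2, and Mxd1 was the lower of the pair in replicate 1. Between the genotypes in rTreg cells both were higher in Foxp1-deficient libraries, the myeloid sum at 5.77 to 16.6 against 0.765 to 2.13 and Mxd1 at a mean of 194.9 against 154.3 CPM. In rTreg cells of both genotypes replicate 1 had the higher myeloid sum and the higher Mxd1. Between the WT subsets the sum was higher in aTreg cells, where Mxd1 was lower. The part of myeloid RNA in the Mxd1 values was not tested.

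Mxd4, another MAX-binding repressor of the family, went the other way. In WT mice it was at 248.1 and 331.2 CPM in rTreg libraries against 493.2 and 529.3 in aTreg libraries. In Foxp1-deficient mice these levels were 232.2 and 275.7 CPM against 414.1 and 504.4 CPM. The rTreg and aTreg libraries did not overlap in either genotype. Mxd4 rose 1.78-fold in WT (0.83 ± 0.076, adjusted p = 0.000179) and 1.81-fold in Foxp1-deficient mice (0.85 ± 0.076, adjusted p = 0.000108), both calls held in each alternative run, and neither reached the 2-fold size that the study set for subset differences. Between the genotypes the differences of -0.18 (95% interval -0.36 to -0.01, adjusted p = 0.162) in rTreg and -0.16 (-0.34 to 0.01, adjusted p = 0.243) in aTreg cells did not pass. The change from rTreg to aTreg cells differed between the genotypes by 0.02, with an interval of -0.23 to 0.27. Mxd4 shares 514 exon bases with Gm42846 on the opposite strand, a gene that is not in the count table. The library kit does not mark strand, so reads of the 2 genes over these bases cannot be told apart.

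Mxd3 was the one member that passed between the genotypes, and it did so in both subsets. MXD3 differs from the other MXD proteins in being expressed during the S phase of dividing cells. It was the rarest member, with 6 and 6 counted reads in WT rTreg, 13 and 46 in Foxp1-deficient rTreg, 14 and 42 in WT aTreg and 60 and 117 in Foxp1-deficient aTreg libraries. As CPM this was 0.553 and 0.471, 2.07 and 3.32, 1.54 and 2.69, and 5.03 and 8.41 in the same order. Foxp1-deficient libraries lay above WT libraries in each subset, and WT aTreg and Foxp1-deficient rTreg libraries overlapped. Against WT, the Mxd3 level of Foxp1-deficient mice was 5.24-fold higher among rTreg cells (2.39 ± 0.37, adjusted p = 0.00812) and 3.15-fold higher among aTreg cells (1.65 ± 0.26, adjusted p = 0.0123). From rTreg to aTreg cells it rose 4.12-fold in WT (2.04 ± 0.37, adjusted p = 0.00475) and 2.47-fold in Foxp1-deficient mice (1.31 ± 0.26, adjusted p = 0.00516). The 2 genotype effects differed by -0.74, with a 95% interval of -1.81 to 0.34.

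All 4 directions of Mxd3 were kept in each alternative. Its calls, other than that between the WT subsets, depended on the block, and all 4 depended on libraries of replicate 2. Without the replicate block the adjusted p was 0.0654 and 0.164 for the genotype effect in rTreg and aTreg cells, 0.0328 for the subset difference in WT and 0.0617 in Foxp1-deficient mice. Both genotype calls were also lost on FPKM plus 1 (0.0596 and 0.0639), and the one in aTreg cells on FPKM plus 0.1 (0.103). On FPKM plus 1 without filter both genotype calls and the WT subset call were lost. There the adjusted p was 0.1465 between the genotypes in rTreg cells and 0.1102 between the WT subsets. The rTreg genotype call was lost without WT rTreg replicate 2 (1.84, adjusted p = 0.108) or Foxp1-deficient rTreg replicate 2 (2.36, 0.104), and the aTreg genotype call without WT aTreg replicate 2 (1.78, 0.0927) or Foxp1-deficient aTreg replicate 2 (1.56, 0.157). The WT subset call was lost without WT rTreg replicate 2 (1.51, 0.0776), and the Foxp1-deficient one without rTreg replicate 2 (1.33, 0.0676) or aTreg replicate 2 (1.21, 0.0698). Mxd3 shares 105 exon bases with Prelid1 on the opposite strand, and because the library kit does not mark strand, reads over these bases cannot be told apart. Prelid1 was at 130.7 to 181.1 CPM. It was higher in Foxp1-deficient than in WT cells, by 0.29 in rTreg and 0.34 in aTreg cells. Both of these differences passed (edgeR adjusted p = 0.0245 and 0.0204). Between the subsets Prelid1 differed by -0.05 in WT and 0.00 in Foxp1-deficient mice, and neither passed. The part of Prelid1 reads in the Mxd3 counts was not tested.

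Genes of cell division moved with Mxd3. A list of 20 proliferation genes summed to 43.2 and 48.3 CPM of the library total in WT rTreg, 192 and 261 in Foxp1-deficient rTreg, 164 and 307 in WT aTreg and 548 and 726 in Foxp1-deficient aTreg libraries. Of these 20 genes, 18 (90%) were higher in Foxp1-deficient rTreg and 20 (100%) in Foxp1-deficient aTreg cells, beside 6.57% and 4.11% of all genes. From rTreg to aTreg cells 19 (95%) were higher in WT and 20 (100%) in Foxp1-deficient mice, beside 18.2% and 21.9%. All 20 values lay above 0 in each of the 4 comparisons. Their medians were 2.58, 1.55, 2.33 and 1.46 on the log2 scale, beside 0.00, 0.00, 0.00 and -0.02 for all genes. Without the replicate block the counts of higher genes were 8, 0, 16 and 11. Between the genotypes they fell to 8 and 9 in rTreg cells without WT or Foxp1-deficient rTreg replicate 2, and to 13 and 8 in aTreg cells without Foxp1-deficient aTreg replicate 1 and 2. Cenpf, a kinetochore protein, was higher by 3.97 ± 0.31 in Foxp1-deficient rTreg cells, and Bub1, a mitotic checkpoint kinase, by 2.06 ± 0.26 in Foxp1-deficient aTreg cells. This Bub1 call was lost without the block (edgeR adjusted p = 0.244), and its value was 2.25 without Foxp1-deficient aTreg replicate 2. Both calls were lost with limma on FPKM plus 1 without filter (adjusted p = 0.146 for Cenpf and 0.144 for Bub1). The part of these genes in the Mxd3 result was not tested.

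**Figure D3:**
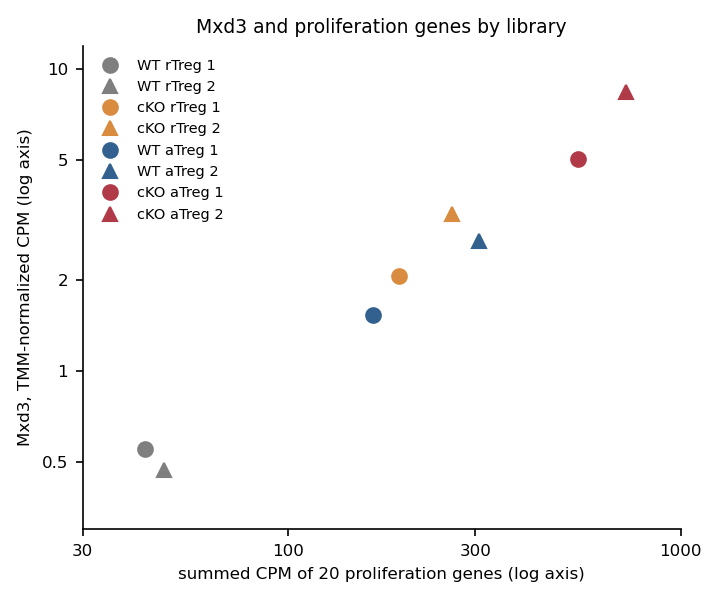
Mxd3 in TMM-normalized CPM (y axis, log scale) against the summed CPM (of the library total) of 20 proliferation genes (x axis, log scale) in the 8 libraries, with circles for replicate 1 and triangles for replicate 2. WT rTreg libraries stand at the lower left (sums 43.2 and 48.3) and Foxp1-deficient aTreg libraries at the upper right (548 and 726).

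The other repressors showed small differences or none that passed. Mnt, whose protein opposes MYC in dividing and resting cells alike, was at 129.8 and 121.1 CPM in WT rTreg, 109.3 and 102.2 in Foxp1-deficient rTreg, 113.7 and 95.39 in WT aTreg and 103.1 and 100.2 in Foxp1-deficient aTreg cells. WT rTreg libraries were the highest 2 of the 8. Mnt was lower in WT aTreg than in WT rTreg cells by 0.27 ± 0.069 (1.20-fold, adjusted p = 0.0215), a call that was lost without the block (adjusted p = 0.136), on FPKM plus 1 without filter (0.0752) and without WT rTreg replicate 1 (0.104), WT rTreg replicate 2 (0.143) or WT aTreg replicate 2 (0.161). Its difference between the genotypes in rTreg cells was -0.25 in each pair (95% interval -0.41 to -0.08) with an adjusted p of 0.0605, which passed without either WT aTreg library (0.0480 and 0.0469 without replicate 1 and 2), without the filter on low counts (0.0336) and in the fit of the 4 rTreg libraries alone (0.0434). In aTreg cells it was -0.03 (-0.20 to 0.13).

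Mxi1, which encodes the repressor MXI1 (also called MXD2), did not pass in any comparison. It ranged from 28.16 to 35.18 CPM over the 8 libraries. Its 95% intervals reached from -0.37 to 0.08 and from -0.23 to 0.21 between the genotypes in rTreg and aTreg cells, and from -0.41 to 0.03 and from -0.28 to 0.17 between the subsets in WT and Foxp1-deficient mice. Changes of Mxi1 within those bounds could not be told from none with 2 libraries per group. Mxi1 shares 194 exon bases with Gm10197 on the opposite strand, which is not in the count table.

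Mlx was at 41.17 and 45.88 CPM in WT rTreg, 40.48 and 47.16 in Foxp1-deficient rTreg, 36.10 and 40.13 in WT aTreg and 32.61 and 41.04 in Foxp1-deficient aTreg cells. In both pairs of each genotype the aTreg library was the lower one. Its fall of 0.25 ± 0.080 in Foxp1-deficient mice (1.19-fold, adjusted p = 0.0384) was lost without the block (adjusted p = 0.262), with DESeq2 (0.200), with limma-voom (0.0519), without the filter on low counts (0.167), on FPKM plus 1 without filter (0.0664) and without any one of the 8 libraries (0.0539 to 0.224). In WT mice the difference was -0.19 (95% interval -0.38 to -0.01, adjusted p = 0.104), and between the genotypes it was 0.01 in rTreg and -0.05 in aTreg cells, with intervals of -0.18 to 0.19 and -0.24 to 0.13. Mlx shares 385 exon bases with Psmc3ip on the opposite strand, which held 21 to 40 counted reads per library.

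Levels per transcript length, from the authors' FPKM, show how the make-up of the network turned. Myc led in rTreg cells, with 74.5 and 74.5 FPKM in WT and 81.6 and 74.4 in Foxp1-deficient libraries, ahead of Max (40.1 to 45.9 FPKM in these 4 libraries). In aTreg cells Mxd4 led in place of Myc, with 61.8 ± 2.80 FPKM (SD, n = 2) in WT and 54.4 ± 5.81 in Foxp1-deficient cells. There Myc was at 52.1 and 44.1 FPKM in WT and at 45.2 and 29.7 in Foxp1-deficient libraries, and its range overlapped that of Max in both genotypes. Mnt stood at 21.1 to 28.2 FPKM and Mlx at 16.8 to 22.7 over all 8 libraries, Mxi1 at 4.83 to 6.31, and Mxd3 was last in every group. By mean FPKM, Mxd1 went from rank 5 in WT and rank 4 in Foxp1-deficient rTreg cells to rank 6 in aTreg cells of both genotypes. It overlapped Mlx in WT rTreg cells, stood above it in Foxp1-deficient rTreg cells and below it in aTreg cells of both genotypes. The length behind the FPKM value of Mxd3 (2081 bases) and of Mxi1 (5619) is shorter than the merged exons of the annotation used here (2369 and 6823).

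Summed over the 8 genes, Myc made up 33.1% and 32.6% of network FPKM in WT rTreg, 35.5% and 33.0% in Foxp1-deficient rTreg, 24.2% and 21.3% in WT aTreg and 23.7% and 15.7% in Foxp1-deficient aTreg libraries. The 5 repressor genes together (Mxd1, Mxd3, Mxd4, Mxi1 and Mnt) came to 1.20 and 1.17 times the FPKM of Myc in WT rTreg and 1.07 and 1.11 times in Foxp1-deficient rTreg libraries. In aTreg cells the ratio was 1.93 and 2.25 in WT and 2.01 and 3.40 in Foxp1-deficient libraries. All 4 aTreg ratios were above all 4 rTreg ratios, and the genotypes overlapped in aTreg cells. The repressor sum itself ran from 82.7 to 101 FPKM over all libraries, with Mxd1 lower and Mxd4 higher in aTreg cells. These are sums of RNA levels and say nothing of the proteins, and no test was made on them.

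**Figure D4:**
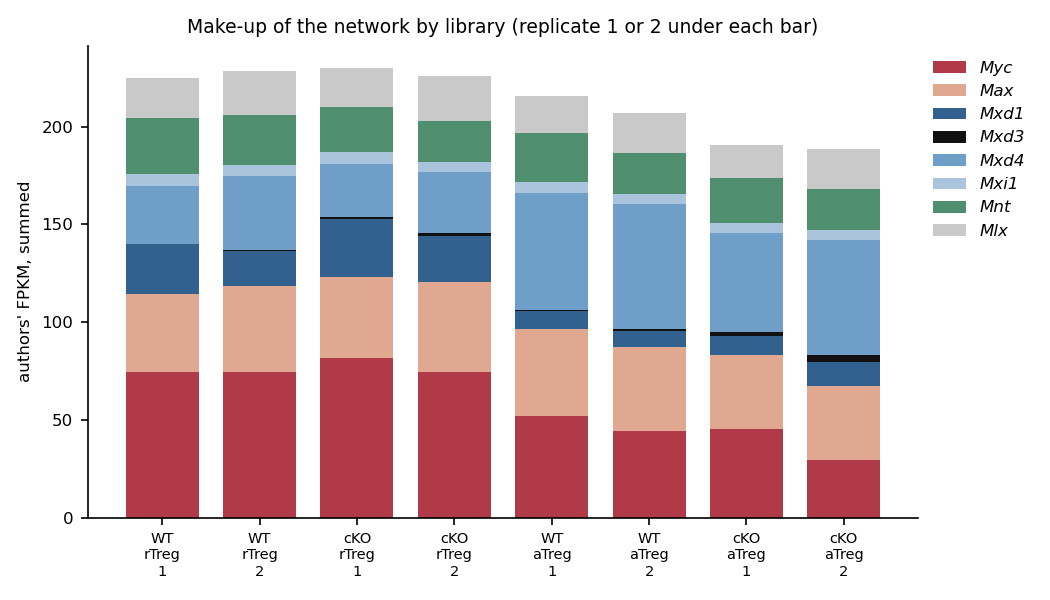
Stacked FPKM of the 8 network genes (y axis, authors' FPKM) in each of the 8 libraries, rTreg on the left and aTreg on the right. The Myc segment takes 32.6% to 35.5% of the bar in rTreg and 15.7% to 24.2% in aTreg libraries, while that of Mxd4 takes 11.7% to 16.7% and 26.4% to 31.0%.

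Further genes of the network were read from a list of 6. Mycn, Mycl and Mlxipl (ChREBP) were at 0.252 CPM or less in every library and were not tested. Mga, a large MAX partner that acts as a repressor, was at 204.8 and 267.4 CPM in WT rTreg, 174.0 and 212.2 in Foxp1-deficient rTreg, 166.4 and 213.0 in WT aTreg and 142.4 and 163.2 in Foxp1-deficient aTreg cells. Within each pair it was lower in Foxp1-deficient than in WT cells and lower in aTreg than in rTreg cells. It passed in each of the 4 comparisons (-0.29, -0.30, -0.31 and -0.33 on the log2 scale, adjusted p = 0.0312, 0.0349, 0.00849 and 0.00513) and in none without the block (0.488, 0.559, 0.296 and 0.224). The Mga call between the genotypes was lost in aTreg cells without any one of the 8 libraries (0.0527 to 0.271) and in rTreg cells without any one of the 4 rTreg libraries (0.0843 to 0.219). Between the subsets it was lost in WT without WT rTreg replicate 2 (0.106) or WT aTreg replicate 1 (0.0616), and in Foxp1-deficient mice without their rTreg replicate 1 (0.0531) or aTreg replicate 2 (0.0512). Mlxip, which encodes MondoA, was at 217.7 to 321.7 CPM and did not pass, and Bmyc was at 0.797 to 4.06 CPM and did not pass.

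Txnip and Arrdc4, arrestin-family genes that MondoA and MLX activate when glucose is plentiful, changed in opposite directions from rTreg to aTreg cells, while both had fitted values below 0 between the genotypes. Txnip was at 680.5 and 843.6 CPM in WT rTreg, 390.0 and 475.7 in Foxp1-deficient rTreg, 280.3 and 451.3 in WT aTreg and 193.9 and 303.9 in Foxp1-deficient aTreg cells. It was lower in all 4 comparisons (-0.82 ± 0.11, -0.55 ± 0.11, -1.09 ± 0.11 and -0.83 ± 0.11, adjusted p = 0.00410, 0.0250, 0.000250 and 0.000672), and of these only the WT subset difference passed without the block (adjusted p = 0.0447). The Txnip call between the genotypes was lost in rTreg cells without Foxp1-deficient rTreg replicate 2 (0.0632), and in aTreg cells without WT aTreg replicate 2 (0.160), Foxp1-deficient aTreg replicate 1 (0.116) or Foxp1-deficient aTreg replicate 2. Arrdc4 was higher in aTreg than in rTreg cells, by 2.01 ± 0.39 in WT and 3.51 ± 0.49 in Foxp1-deficient mice (adjusted p = 0.00634 and 0.000940), and the WT call was lost without WT rTreg replicate 2 (0.0544). Between the genotypes Arrdc4 differed by -1.91 in rTreg cells (adjusted p = 0.0599, and 0.0231 with DESeq2) and by -0.42 in aTreg cells (0.534).

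Targets of MYC were followed with a list of 57 genes written after the hallmark list MYC targets V2, many of them genes of ribosome assembly, with Myc left out. Of 56 in the table, 55 were tested. In WT aTreg against rTreg cells 19 of the 55 were lower (34.5%, beside 13.6% of all genes) and 3 higher (5.45%, beside 18.2%), with a median of -0.22 beside 0.00 for all genes. In Foxp1-deficient aTreg against rTreg cells 28 were lower (50.9%, beside 18.2%) and 4 higher (7.27%, beside 21.9%), with a median of -0.35 beside -0.02. Srm, the spermidine synthase, was lower by 0.69 ± 0.094 in WT and by 0.98 ± 0.095 in Foxp1-deficient mice, and Gnl3 (nucleostemin) by 0.72 ± 0.10 in Foxp1-deficient mice. Hk2, a hexokinase, went the other way, by 0.98 ± 0.15 and 1.10 ± 0.17. Its WT call was lost without the block (edgeR adjusted p = 0.0653). Both Hk2 calls were lost with limma on FPKM plus 1 without filter (adjusted p = 0.0669 in WT and 0.0511 in Foxp1-deficient mice). Without the block 7 and 20 of the 55 were lower, DESeq2 called 13 and 23 lower, and FPKM plus 1 without filter gave 5 and 15. The count of lower targets in WT ran from 7 to 22 when one library was left out, and moved by over 1.5 times without WT rTreg replicate 1 or 2, WT aTreg replicate 1 or 2, or Foxp1-deficient rTreg replicate 1. That in Foxp1-deficient mice ran from 16 to 29, and moved by over 1.5 times without Foxp1-deficient rTreg replicate 2 or Foxp1-deficient aTreg replicate 2, where the 4 higher targets also became 1 and 2.

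Between the genotypes fewer than 10 of the MYC targets passed in either subset. In Foxp1-deficient rTreg cells 6 of 55 were higher (10.9%, beside 6.57% of all genes) and 1 lower (1.82%, beside 5.45%), with a median of 0.03. In Foxp1-deficient aTreg cells 4 were higher (7.27%, beside 4.11%) and 2 lower (3.64%, beside 2.77%), with a median of -0.11. Those named by the rule included genes of replication and mitosis. Mcm5, a subunit of the replicative helicase, was higher by 0.61 ± 0.070 in Foxp1-deficient rTreg cells, Plk1, a mitotic kinase that is also on the proliferation list, by 1.29 ± 0.19 in Foxp1-deficient aTreg cells, and Sord, sorbitol dehydrogenase, by 1.56 ± 0.28 and 1.17 ± 0.25. Dusp2, a phosphatase of MAP kinases, was lower by 0.66 ± 0.098 and 0.54 ± 0.098, and Ppan, a ribosome assembly factor, by 0.39 ± 0.079 in aTreg cells. The Mcm5 call was kept without any one library, and the others were lost in 2 to 5 of the 8 fits with one library left out. Without the block 1 was higher and 0 lower in rTreg cells and 0 passed in aTreg cells. DESeq2 and limma-voom each called 4 higher and 1 lower in rTreg cells and 4 higher and 2 lower in aTreg cells. With one library left out, 1 to 5 were higher in rTreg cells (1 or 2 without any one of the 4 rTreg libraries) and 0 to 4 in aTreg cells (2 without WT aTreg replicate 2, and 1 and 0 without Foxp1-deficient aTreg replicate 1 and 2). In the edgeR test of the difference between the genotype effects 0 of the 55 passed (4 with an unadjusted p under 0.05, all lower, and 0 by DESeq2 and limma-voom), with a median of -0.14 beside -0.01 for all genes.

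**Figure D5:**
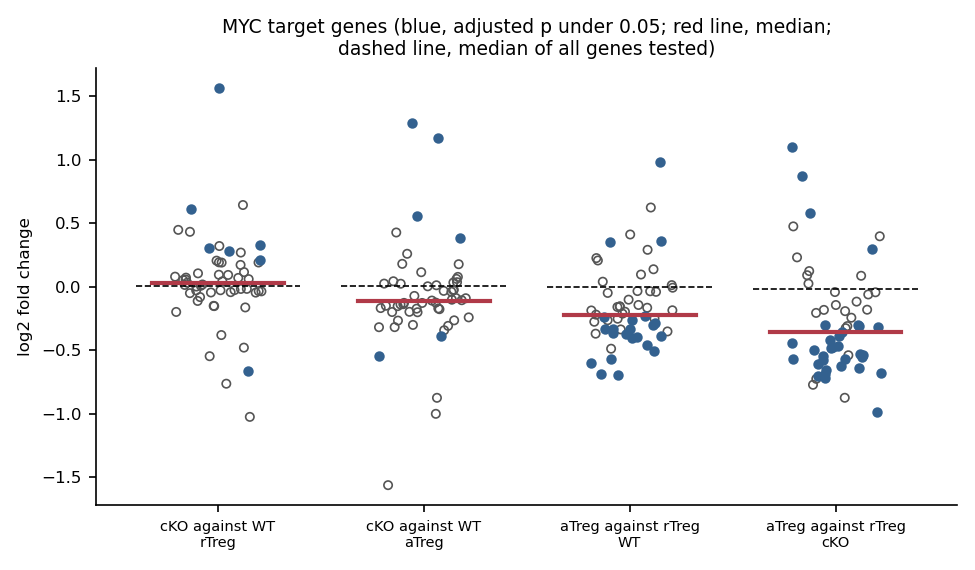
Log2 fold changes (y axis) of the 55 MYC target genes tested in the 4 comparisons, one point per gene, filled where the adjusted p was under 0.05 in edgeR. The median (thick line) is at 0.03 and -0.11 between the genotypes and at -0.22 and -0.35 between the subsets, against the dashed median of all genes.

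Lists were also read for the partners that MYC and the MXD repressors recruit. Of 16 SIN3-HDAC corepressor genes, 1 was higher and 1 lower in Foxp1-deficient rTreg cells (Arid4b, 0.26 ± 0.056, and Arid4a, -0.24 ± 0.059), and 1 lower in Foxp1-deficient aTreg cells (Hdac2, a histone deacetylase, -0.30 ± 0.068), so that 6.25% or none of the list passed in each direction, beside 2.77% to 6.57% of all genes. From rTreg to aTreg cells 1 was lower in WT (Arid4b, -0.19 ± 0.056; 6.25%, beside 13.6% of all genes), and 2 were higher (12.5%, beside 21.9% of all genes) and 4 lower (25%, beside 18.2%) in Foxp1-deficient mice, among them the histone chaperone Rbbp7 (0.30 ± 0.058) and Arid4b (-0.37 ± 0.056). Without the block 0 of the 16 passed in the first 3 of these comparisons, and 1 was higher and 3 lower in the last. The Hdac2 call between the genotypes and the Arid4b call between the WT subsets were lost with DESeq2 and without any one of the 8 libraries, and the Arid4a and Arid4b calls in rTreg cells without any one of the 4 rTreg libraries. The 4 lower in Foxp1-deficient mice became 2 without either rTreg replicate or aTreg replicate 2 of that genotype, and the 2 higher became 1 without any one of the libraries other than WT rTreg. Of 15 MYC cofactors 0 passed between the genotypes in edgeR, DESeq2, limma-voom and the fit without the block, with an unadjusted p under 0.05 for 3 in rTreg and 2 in aTreg cells. From rTreg to aTreg cells 4 were lower in WT and 4 in Foxp1-deficient mice (26.7% each, beside 13.6% and 18.2% of all genes), among them Kat2a, the acetyltransferase GCN5 (-0.47 ± 0.072 and -0.54 ± 0.072), and Wdr5, a scaffold of MYC on chromatin (-0.29 ± 0.088 and -0.36 ± 0.090). Without the block 1 and 2 of these cofactors were lower, and DESeq2 called 2 and 3. With one library left out the counts were 2 to 3 and 1 to 3, falling to 2 in WT without either replicate of WT rTreg or Foxp1-deficient rTreg cells or without WT aTreg replicate 1, and in Foxp1-deficient mice to 1 without their rTreg replicate 1 and to 2 without their rTreg or aTreg replicate 2. The Kat2a calls held in each of these, and the Wdr5 calls were lost in 5 and 3 of the 8 fits.

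A list of 12 genes that act on the stability of the MYC protein was also read. In Foxp1-deficient rTreg cells 1 was higher and 1 lower (8.33% each, beside 6.57% and 5.45% of all genes). In Foxp1-deficient aTreg cells 1 was higher (8.33%, beside 4.11%) and 0 lower (beside 2.77%). DESeq2 and the fit without the block each called 0 higher and 1 lower in rTreg cells, and 0 in aTreg cells. Usp28, a deubiquitinase that counters FBXW7 on MYC, was lower by 1.03 ± 0.11 in Foxp1-deficient rTreg cells (adjusted p = 0.00216, 0.0162 without the block and 0.0602 on FPKM plus 1 without filter). Aurka, a mitotic kinase that shields MYC proteins from FBXW7, was higher in all 4 comparisons, by 1.01 ± 0.21 and 0.89 ± 0.17 between the genotypes in rTreg and aTreg cells and by 0.92 ± 0.20 and 0.80 ± 0.18 between the subsets. None of these passed with DESeq2 (adjusted p = 0.0683, 0.0972, 0.0558 and 0.0556), and those between the genotypes did not pass without the block (0.0708 and 0.131). With one library left out, the 4 Aurka calls were lost in 4, 6, 3 and 2 of 8 fits. From rTreg to aTreg cells 1 was higher (8.33%) and 4 lower (33.3%) in each genotype. Of all genes 18.2% were higher and 13.6% lower in WT, and 21.9% and 18.2% in Foxp1-deficient mice. DESeq2 called 0 higher, and 4 and 3 lower. The fit without the block called 1 higher in each genotype, and 3 and 2 lower. The count of lower genes fell most without WT rTreg replicate 2 in WT, and without Foxp1-deficient rTreg replicate 1 in Foxp1-deficient mice. Ppp2r5a, a phosphatase subunit that targets MYC, was among the lower ones (-0.64 ± 0.068 in WT and -0.56 ± 0.068 in Foxp1-deficient mice), with Usp28 in WT (-0.51 ± 0.11, lost without WT rTreg replicate 2 or WT aTreg replicate 1) and the deubiquitinase Usp36 (-0.76 ± 0.071) in Foxp1-deficient mice.

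The genes whose levels ran closest to each member were found by the root mean square difference of log2 CPM over the 8 libraries, each gene centred on its own mean. Closest to Myc were 4931428F04Rik (0.0919), the centromere gene Cenpt (0.105) and Srm (0.106), where Myc itself departed from its mean by 0.497 on this measure. Closest to Mxd3 were Birc5 (0.140) and the motor protein gene Cenpe (0.180), beside 1.22 for Mxd3 itself, and Birc5 and Cenpe are both on the proliferation list. Closest to Mxd1 were Galnt10 (0.157), B230118H07Rik (0.188) and the kinase gene Map3k8 (0.200), beside 0.722. Closest to Mxd4 were D3Ertd751e (0.0691), Arhgap26 (0.0972) and the receptor gene Cd226 (0.0998), beside 0.453. Max, Mnt and Mlx varied little over the libraries (0.115, 0.140 and 0.160), and their nearest genes lay within 0.0397 to 0.0595.

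In the annotation of GRCm38 all 8 members are protein-coding, and none overlaps another. Myc lies at chr15:61985391-61990374, Max at chr12:76937269-76962201, Mxd1 at chr6:86647042-86669161 and Mxd3 at chr13:55325168-55329823. Mxd4 lies at chr5:34173883-34187720, Mxi1 at chr19:53310518-53375810, Mnt at chr11:74830920-74845725 and Mlx at chr11:101087277-101092207. Mnt and Mlx are the 2 members on one chromosome. Counts were made over exons, so changes in the use of starts or of single exons within a member were not seen.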

How the data were processed

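Paired-end reads were checked with FastQC, trimmed with trim_galore, freed of duplicates with Picard and counted per gene with htseq-count by the authors, and the deposited counts are whole numbers. The submitters' processing notes name HISAT2 2.0.5, HTSeq and mm10, and the counting mode is not given in the sources used here. FPKM values were also deposited by the authors, and each equals the count divided by the library total and 1 length per gene.

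The test on counts was that of edgeR 4.0.16 in R 4.3.3 (TMM, filterByExpr with a minimum count of 10, glmQLFit and glmQLFTest). All 8 libraries were fitted together by group, with replicate number as a blocking factor, on 14540 genes, and 13054 genes were left out. The block follows the paired analysis in the study's methods, since the labels carry replicate numbers. Same-numbered libraries deviated together from their group means (correlation 0.355 to 0.597 between groups, across 14540 genes, which are not independent). The 2 subsets of a genotype gave 0.597 in WT and 0.548 in Foxp1-deficient mice, and groups of different genotypes 0.355 to 0.462. Whether same-numbered rTreg and aTreg libraries of a genotype came from the same mice is not given in the sources used here. The single block does not model such sharing. P-values were adjusted over all genes tested (Benjamini-Hochberg), a gene passed at an adjusted p under 0.05, and the fold sizes of 1.5 (genotype) and 2 (subset) that the study set are named where they matter. An error after ± is the SE of a log2 difference, or the SD where stated. A level of 3 counts was the floor for a detected gene, which covers counting error only, as the reads carry no molecular identifiers. Levels between genes were compared only as FPKM.

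Alternatives were the fit without the block, DESeq2 1.42.0, limma-voom (limma 3.58.1), median-of-ratios factors, no filter on low counts, the libraries of a comparison alone, limma on log2 FPKM with a pseudocount of 1 or 0.1 (mean FPKM of at least 1) or without filter, a length trend removed, and each library left out. The edgeR test was also run on simulated counts, changed only in Foxp1-deficient rTreg libraries and without an effect of replicate number. That run does not check the calls that depend on the block. Of the table's identifiers, 27479 are in GENCODE M21 (GRCm38). The members and lists were chosen with earlier results of these data known. All 8 members are named, and of each list the 2 largest rises and falls that passed in each comparison could be named, with all genes of the 2 smallest lists, and the 3 genes closest to each member that passed in a test. A few results that this rule or the marker lists would give are not reported here.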

Additional observations from a re-analysis of the deposited data

How the results depend on the processing

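Over the 40 values of the 8 genes (5 tests each), the alternatives other than leaving out a library left direction and call as they were in 351 cases, lost the call in 21, gained one in 5 and turned the sign in 15. With one library left out these numbers were 273, 22, 6 and 19. Every turned sign belonged to a difference that had not passed, and in each case the cause was not tested. For Mlx between the genotypes in rTreg cells the value of 0.01 became -0.005982 with DESeq2, -0.005936 with median-of-ratios factors, -0.01201 without a filter on low counts, -0.01649 on FPKM plus 1 with and without filter, -0.01726 on FPKM plus 0.1 and -0.0249 with the length trend removed. For Mxi1 between the genotypes in aTreg cells it became 0.002045 without the filter and 0.006475 with the length trend removed, and for Max between the WT subsets -0.01382 with the trend removed. For the difference of the genotype effects, Mxd1 became -0.004054 and Mxd3 0.1939 on FPKM plus 1 with and without filter, and Mxd4 -0.0105 with the trend removed.

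With one library left out, turned signs came with these ranges. Between the genotypes in rTreg cells, Myc ran from -0.08347 to 0.2528 and Mlx from -0.04299 to 0.03606. Between the genotypes in aTreg cells, Mxi1 ran from -0.08844 to 0.06782, Mnt from -0.1225 to 0.05672 and Mlx from -0.134 to 0.0239. Between the WT subsets Max ran from -0.07245 to 0.09342, and between the Foxp1-deficient subsets Mxi1 ran from -0.1607 to 0.06054 and Mnt from -0.1113 to 0.0007154. For the difference of the genotype effects, Mxd1 ran from -0.3265 to 0.3584, Mxd4 from -0.08732 to 0.1344 and Mlx from -0.1456 to 0.01397.

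The number of members that passed between the genotypes in rTreg cells (1) was 0 without the replicate block, 2 without the filter, 3 with the libraries of the comparison alone, 0 on FPKM plus 1 with or without filter, and 0 to 2 with one library left out. In aTreg cells (1) it was 0 without the block, 3 without the filter, 0 on FPKM plus 1 or 0.1 and without filter, and 0 to 3 with one library left out. Between the WT subsets (5) it was 2 on FPKM plus 1 without filter, and 3 to 5 with one library left out. Between the Foxp1-deficient subsets (6) it was 3 without the block, and 3 to 5 with one library left out. The fit without the replicate block gave 4 for the WT subsets and 0 for the difference of the genotype effects, and beyond the calls of Mxd3, Mnt, Max and Mlx given in the report it changed no other call of a member. Mxd3, with 6 counted reads in each WT rTreg library, was limited most by depth, and FPKM plus 1 lowers its differences by construction (0.8495 in place of 2.39 in rTreg cells).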
